A study of Mus musculus with 24 samples.

Results

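Autophagy delivers cytoplasm and worn organelles to the lysosome inside a membrane vesicle, the autophagosome. A kinase complex around ULK1 starts the vesicle, a lipid kinase complex around Beclin 1 marks its membrane, and small ubiquitin-like proteins of the LC3 and GABARAP families are attached to it with the help of ATG16L1. Receptors such as SQSTM1 hold cargo to these proteins, and BNIP3 and BNIP3L do so from the surface of mitochondria. In skeletal muscle the pathway is known for its activation in fasting and wasting, when FoxO transcription factors raise several of its genes.

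The 10 genes described here encode these steps: Ulk1, Becn1, Uvrag, Atg16l1, Map1lc3a, Map1lc3b, Gabarapl1, Sqstm1, Bnip3 and Bnip3l. They were taken by gene name from a table of 43346 genes, as a list chosen with earlier results of these data known. All 10 were among the 17773 genes tested, with 238 to 68592 reads in each library, so that a filter on low counts did not turn on any group. RNA came from the gastrocnemius, the large calf muscle, of C57BL6 mice in a design that crossed sex with tumour. At 7 weeks of age, LLC1 mice of both sexes received a subcutaneous dose of LLC1, a carcinoma line from mouse lung, and vehicle mice of both sexes received phosphate-buffered saline. Muscle was taken 3 weeks later from 6 mice in each of the 4 groups. A single tumour line was used, so the results concern that line.

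Libraries held 26.2 to 47.4 M (mega-counts) each. The labels give the same lane to all libraries of a group and another lane to every other group. An effect of the lane and one of the group cannot be told apart. Levels are counts divided by the scaled library size in mega-counts (CPM). Calls are those with an adjusted p under 0.05 over all genes tested. Muscle fibre markers, which check the labelled tissue, summed to 136000 CPM or more in each library, with 0 of 10 higher and 3 lower in male LLC1 mice and 0 higher and 2 lower in female LLC1 mice. All 10 neutrophil and all 7 erythroid (red cell) markers were higher with LLC1 in both sexes. Of the other lists, 2 of 11 macrophage and 2 of 7 endothelial markers were higher in males, with 3 endothelial markers lower, against 0 macrophage and 1 endothelial marker higher in females. Fibro-adipogenic progenitor markers had 6 of 8 lower and 1 higher in males, and 4 lower and 1 higher in females. No adipocyte marker was called among 6, and no epithelial marker among the 3 of 6 that were tested, with 1 of the 6 at 0 in each group. In bulk muscle, fewer cells of a type and less RNA per cell cannot be told apart, and the part of other cells in the results below was not tested except where a value is given.

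Levels per length were compared between the genes over the 12 vehicle mice of both sexes, in CPM per kilobase of annotated gene length. Sqstm1 was highest, with a median of 134.9 CPM per kilobase (109.2 to 187.1), above Map1lc3a at 92.1 (82.3 to 102.4) and Bnip3 at 90.4 (74.6 to 111.6). Map1lc3a and Bnip3 overlapped each other. A lower run of Gabarapl1 (median 24.1), Map1lc3b (21.5), Ulk1 (16.5) and Bnip3l (15.7) overlapped from each gene to the next. Becn1 stood below them at 7.76, and Uvrag (3.04) and Atg16l1 (2.78) were lowest and overlapped. The annotated lengths of Atg16l1 (9628 bases), Map1lc3b (7517) and Becn1 (7065) add up all annotated exons. How far such lengths lower the levels per length of these genes was not tested. The lengths come with the counts, and for Uvrag that length is 3438 bases, where the exons in GENCODE M21 cover 9035. On the GENCODE length Uvrag was at 1.16 CPM per kilobase (0.867 to 1.36), below Atg16l1 without overlap, and Bnip3l (15.7) stood above Ulk1 (13.2) and Map1lc3b (21.5) above Gabarapl1 (21.1), each pair with overlap.

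The effect of LLC1 was examined first in males. Of the 10 genes, 9 rose, 0 fell and only Becn1 did not pass, where 19.5% of all genes tested were higher and 16.8% lower. The median log2 fold change of the 10 was 0.65, against 0.01 over all genes tested. The highest log2 fold changes among them were those of the mitophagy receptor Bnip3, of Gabarapl1 and of the cargo receptor Sqstm1. In females 7 rose, 0 fell and Becn1, Atg16l1 and Gabarapl1 did not pass, where 4.97% of all genes were higher and 4.95% lower. The female median was 0.44, against -0.01 over all genes. Every LLC1 mouse lay above every vehicle mouse for 4 of the 10 genes in males, against 4.96% of all genes, and for 5 of the 10 in females, against 4.05%. With library totals in place of TMM scaling the split over all genes in males was 4024 higher and 2187 lower, against 3462 and 2987 here, and the 10 genes kept their directions in both sexes.

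**Figure D1:**
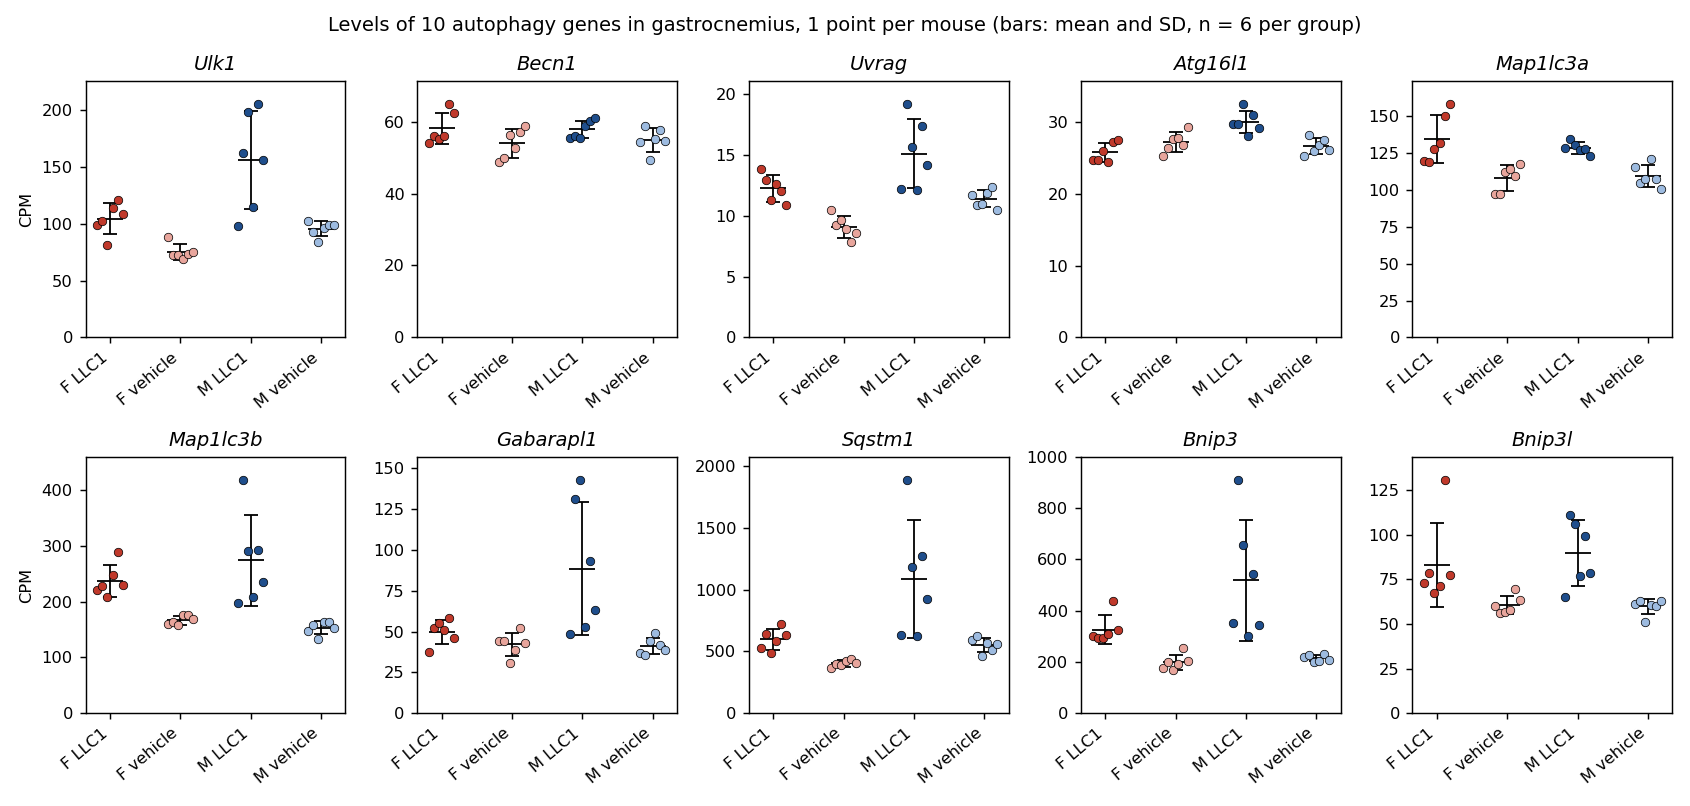
Levels in CPM (vertical axes, each from 0) of the 10 genes in single mice of each group (points; F female, M male), with the mean and SD of 6 mice. Bnip3, Sqstm1 and Gabarapl1 have wide spreads in male LLC1 mice, where Sqstm1 runs from 624 to 1889 CPM, while Becn1 and Atg16l1 stay in narrow bands in all groups.

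Ulk1 (ENSMUSG00000029512, mm10 chromosome 5, 110784488 to 110810097) encodes the kinase that starts autophagosome formation. Its level was 98.2 to 204.9 CPM in male LLC1 mice (median 159.3), against 83.5 to 102.4 CPM in male vehicle mice (median 97.4). The male groups touched only through LLC1 mouse 1-4, and the other 5 LLC1 mice lay above all vehicle mice. The rise was 1.63-fold, with a log2 fold change of 0.71 ± 0.13 (SE, n = 6 per group, edgeR adjusted p = 4.0e-04). In females Ulk1 was at 81.4 to 120.8 CPM with LLC1 (median 105.5) and 68.9 to 88.2 CPM with vehicle (median 72.9). LLC1 mouse 2-1 was the only female LLC1 mouse within the vehicle range. The female log2 fold change was 0.47 ± 0.13 (edgeR adjusted p = 0.0244). It no longer passed when female LLC1 mouse 2-3 (adjusted p = 0.0532) or 2-4 (0.0559) was left out, with adjusted p between 0.00308 and 0.215 over 32 alternative settings.

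The subunits of the Beclin 1 lipid kinase complex differed from each other. Becn1 (ENSMUSG00000035086, chromosome 11, 101285952 to 101302286), which encodes Beclin 1 itself, had a median of 57.4 CPM in male LLC1 mice (55.5 to 60.9) and 54.8 CPM in male vehicle mice (49.3 to 58.6). In females its median was 56.1 CPM with LLC1 (54.2 to 64.8) and 54.5 CPM with vehicle (48.8 to 58.9). The groups overlapped in both sexes. Its log2 fold changes of 0.07 ± 0.06 in males and 0.11 ± 0.06 in females did not pass (edgeR adjusted p = 0.372 and 0.281). The 95% interval of each difference, taken gene by gene with 20 degrees of freedom, was -0.06 to 0.20 in males and -0.02 to 0.24 in females. Becn1 is uncertain in one respect: 43.9% of its exon bases overlap Cntd1 on the other strand, and the libraries keep no strand. Cntd1 held 17431 counts over all libraries and Becn1 49145.

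Uvrag (ENSMUSG00000035354, chromosome 7, 98886743 to 99141144) encodes a Beclin 1 partner that acts in the maturation of autophagosomes and endosomes. It had 12.1 to 19.1 CPM in male LLC1 mice (median 14.9), against 10.5 to 12.3 CPM in male vehicle mice (median 11.3). In females the range was 10.9 to 13.9 CPM with LLC1 (median 12.3), all above the 7.83 to 10.4 CPM with vehicle (median 9.06). LLC1 mice 1-4 and 2-2 were the male ones within the vehicle range. The log2 fold changes were close in size, 0.41 ± 0.10 in males and 0.43 ± 0.10 in females (edgeR adjusted p = 0.00288 and 0.00805). Leaving out any 1 of the 24 libraries ended neither call.

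Atg16l1 (ENSMUSG00000026289, chromosome 1, 87755870 to 87792428) encodes the protein that brings the conjugation machinery for LC3 to the membrane. In males it was at 28.0 to 32.5 CPM with LLC1 (median 29.8) and 25.3 to 28.3 CPM with vehicle (median 26.5), with only LLC1 mouse 2-2 inside the vehicle range. In females it was at 24.5 to 27.5 CPM with LLC1 (median 25.4) and 25.2 to 29.3 CPM with vehicle (median 27.2), and the groups overlapped. Its male rise was small, 0.17 ± 0.05 in log2 (edgeR adjusted p = 0.0137). It was lost without male LLC1 mouse 2-1 (0.0525) and with no expression filter (0.0690), with adjusted p between 0.00277 and 0.0901 over 32 alternatives. The female value of -0.08 ± 0.05 did not pass (edgeR adjusted p = 0.384, 95% interval -0.19 to 0.03).

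The LC3 genes rose in both sexes. Map1lc3b (ENSMUSG00000031812, chromosome 8, 121590361 to 121598760) encodes LC3B, the form most often used to follow autophagosomes. It had 197.4 to 418.6 CPM in male LLC1 mice (median 263.9), against 132.6 to 163.7 CPM in male vehicle mice (median 155.6). In females it had 207.7 to 289.9 CPM with LLC1 (median 229.3) and 158.7 to 176.4 CPM with vehicle (median 165.8). The groups did not overlap in either sex. The log2 fold change was 0.84 ± 0.13 in males and 0.51 ± 0.13 in females (edgeR adjusted p = 5.42e-05 and 0.0125), 1.79-fold and 1.42-fold.

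Map1lc3a (ENSMUSG00000027602, chromosome 2, 155276297 to 155278073), which encodes the related LC3A, moved less. It was at 123.1 to 134.4 CPM in male LLC1 mice (median 127.9) and 100.5 to 120.9 CPM in male vehicle mice (median 107.6). In females it was at 119.2 to 158.0 CPM with LLC1 (median 129.7) and 97.2 to 117.7 CPM with vehicle (median 110.9). Again the groups did not overlap in either sex, and the male LLC1 mice lay closer together than the male vehicle mice (SD of log2 CPM 0.04 against 0.10). Its log2 fold changes were 0.23 ± 0.07 in males and 0.31 ± 0.07 in females (edgeR adjusted p = 0.0166 and 0.00774). The CPM of Map1lc3b divided by that of Map1lc3a in the same mouse was 1.54 to 3.12 in male LLC1 mice (median 2.08) and 1.24 to 1.52 in male vehicle mice (median 1.43). In females that ratio was 1.45 to 1.93 with LLC1 (median 1.86) and 1.42 to 1.68 with vehicle (median 1.57). The ratio was not tested.

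Gabarapl1 (ENSMUSG00000030161, chromosome 6, 129533200 to 129542331) encodes a member of the GABARAP branch of the same family. Male LLC1 mice had 48.3 to 142.8 CPM (median 78.0), and male vehicle mice 35.9 to 48.8 CPM (median 40.2). LLC1 mice 2-1, 1-5 and 2-4 stood at 142.8, 131.0 and 93.1 CPM and the other 3 at 63.0 CPM or less, with mouse 1-4 inside the vehicle range. Its male log2 fold change was 1.11 ± 0.21, or 2.16-fold (edgeR adjusted p = 4.8e-04). Female mice had 37.4 to 58.1 CPM with LLC1 (median 51.6) and 30.7 to 52.4 CPM with vehicle (median 43.5), and the groups overlapped. The female value of 0.25 ± 0.21 did not pass (edgeR adjusted p = 0.494), and its 95% interval ran from -0.19 to 0.68. An unstranded overlap with 1700101I11Rik covers 28.3% of its exon bases, but that gene held 1394 counts to 48768 of Gabarapl1.

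Sqstm1 (ENSMUSG00000015837, chromosome 11, 50199366 to 50210827) encodes sequestosome 1, which binds ubiquitin-tagged cargo and LC3 and is itself degraded with them. It was at 623.8 to 1889 CPM in male LLC1 mice (median 1055), against 464.8 to 628.0 CPM in male vehicle mice (median 563.6). Mouse 2-2, at 623.8 CPM, was the only male LLC1 mouse within the vehicle range. The male rise was 0.97 ± 0.19 in log2, or 1.96-fold (edgeR adjusted p = 4.6e-04). In females it was at 484.3 to 726.3 CPM with LLC1 (median 609.6), all above the 366.6 to 440.5 CPM with vehicle (median 401.8). The female log2 fold change of 0.57 ± 0.18 passed narrowly (edgeR adjusted p = 0.0487). That call was kept only without female LLC1 mouse 2-1, male LLC1 mouse 1-4, 1-5, 2-1 or 2-2, or male vehicle mouse 1-3. It was lost without any of the other 18 libraries (adjusted p = 0.0517 to 0.0990) and with no expression filter (0.0852), over a range of 0.00107 to 0.414 in 32 alternatives.

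Bnip3 (ENSMUSG00000078566, chromosome 7, 138890836 to 138909519) encodes a receptor in the outer mitochondrial membrane that binds LC3, known for its induction by hypoxia and by FoxO3. It was at 299.5 to 909.4 CPM in male LLC1 mice (median 447.2), against 200.3 to 231.1 CPM in male vehicle mice (median 213.2). In females it was at 292.5 to 438.4 CPM with LLC1 (median 304.5) and 168.9 to 252.8 CPM with vehicle (median 195.5). The groups did not overlap in either sex. The male rise was 2.41-fold, at 1.27 ± 0.20 in log2 (edgeR adjusted p = 7.27e-05), and the female rise 1.64-fold, at 0.71 ± 0.19 (0.0209). Without female LLC1 mouse 2-4, the highest at 438.4 CPM, the female value was 0.61 and no longer passed (adjusted p = 0.0543, with a range of 0.00129 to 0.215 over 32 alternatives).

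Bnip3l (ENSMUSG00000022051, chromosome 14, 66985239 to 67008877), also called Nix, encodes the related receptor that is known for clearing mitochondria from maturing red cells. It was at 65.0 to 111.2 CPM in male LLC1 mice (median 89.0), all above the 51.1 to 63.1 CPM in male vehicle mice (median 60.99). The male log2 fold change was 0.58 ± 0.14, or 1.497-fold (edgeR adjusted p = 0.00233). In females it was at 67.3 to 130.7 CPM with LLC1 (median 75.3) and 56.1 to 69.5 CPM with vehicle (median 58.96). LLC1 mouse 2-1 was the only female LLC1 mouse within the vehicle range, and mouse 2-4 stood apart at 130.7 CPM, where the next had 78.7. The female log2 fold change was 0.46 ± 0.14 (edgeR adjusted p = 0.0360).

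Erythroid markers were also highest in that female. Their summed level in female LLC1 mouse 2-4 was 19990 CPM, against 1234 to 3164 CPM in the other 5 female LLC1 mice and 473.8 to 1029 CPM in female vehicle mice. In males the sum was 1211 to 4295 CPM with LLC1 and 426.2 to 1083 CPM with vehicle. The highest was in male LLC1 mouse 2-5, where Bnip3l was at 78.7 CPM. Mouse 2-1 had 2981 CPM with Bnip3l at 106.2, and mouse 1-5 had 2067 CPM with the highest Bnip3l of males, 111.2. All 7 of these markers were tested and none was at 0 in any group. Without mouse 2-4 the female value of Bnip3l was 0.28 in place of 0.46 (edgeR adjusted p = 0.102), and 3 of the 10 genes rose in females, Uvrag, Map1lc3a and Map1lc3b, in place of 7. Of all 17907 genes tested without it, 719 were higher in females. The values of the others that lost their calls without that mouse were 0.43 in place of 0.47 for Ulk1, 0.51 in place of 0.57 for Sqstm1 and 0.61 in place of 0.71 for Bnip3. The call of Bnip3l was also lost without female vehicle mouse 1-3 (0.0599), 1-4 (0.0655) or 2-1 (0.0619), within a range of 0.0170 to 0.317 over 32 alternatives. Neutrophil markers, near 0 in vehicle mice, summed to 60.4 to 173.0 CPM with LLC1 and 1.34 to 3.71 CPM with vehicle in males, and to 61.2 to 166.2 and 1.86 to 3.28 CPM in females. Their part in the levels of the 10 genes was not tested.

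Sequence close to a member can share its reads. Libraries without strand also hold reads of genes on the other strand. Of the 50-base stretches of Bnip3l transcripts, 20.8% also occur in the pseudogene Bnip3l-ps, which held 3634 counts to 64569 of Bnip3l. For Bnip3, 13.5% occur in Gm16439, with 3800 counts to 276182. Of the Bnip3 stretches, 33.9% also occur in AC160336.1 and 15.9% in Gm45507, both annotated on the other strand, and Gm45507 overlaps 22.3% of the exon bases of Bnip3. Gm45187, on the other strand of Uvrag, holds 15.9% of its stretches and overlaps 17.6% of its exon bases. No counts of these 3 genes were used here, so their part in the levels of Bnip3 and Uvrag was not tested. For Map1lc3b, 3.67% occur in Gm6055, with 8547 counts to 183353. Sqstm1 overlaps Mrnip on the other strand over 17.3% of its exon bases, with 6341 counts for Mrnip to 579533 for Sqstm1.

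**Figure D2:**
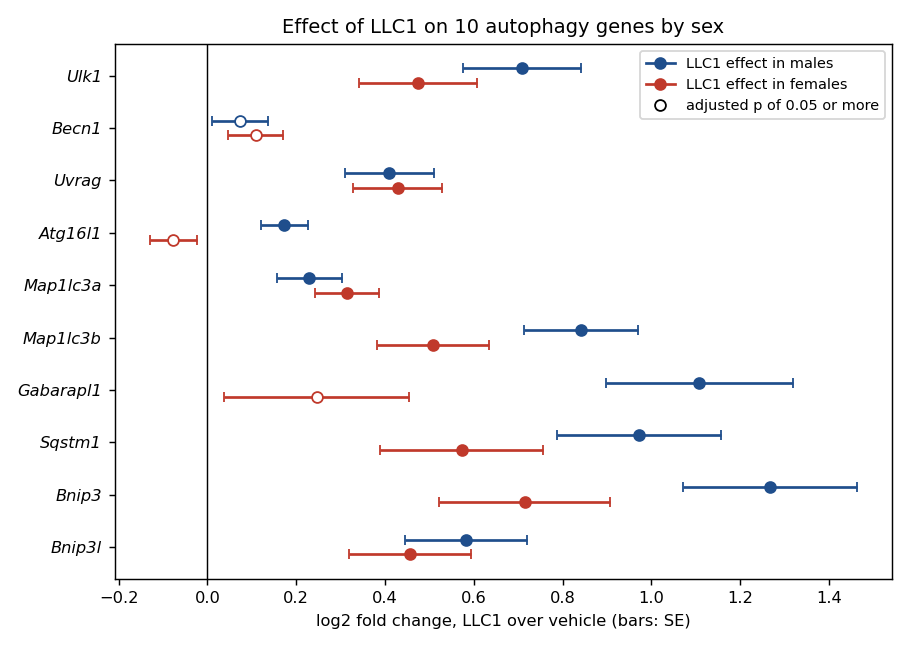
Log2 fold change of LLC1 over vehicle (horizontal axis, bars are SE) for the 10 genes in males (blue) and females (red), with open circles where the adjusted p was 0.05 or more. Bnip3 is at 1.27 in males and 0.71 in females, while Becn1 lies near 0 in both and Uvrag has almost the same value in both.

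Whether the response differed between the sexes was tested with the interaction term. The log2 fold change was larger in males than in females for 7 of the 10 genes, with a median difference of 0.24, where 9287 of all 17773 genes had a larger value in males and the median was 0.02. Of the 56 other autophagy genes described below, 45 had a larger value in males, with a median difference of 0.14. By edgeR 0 of the 10 passed, and 0 of 17773 genes did (0%). At an unadjusted p under 0.05 there were 2191 genes (12.3%), and Atg16l1 and Gabarapl1 were among them. DESeq2 called 20 genes higher and 25 lower for this term and limma-voom 0, with none of the 10 genes among the calls of either tool. For Gabarapl1 the difference was 0.86 ± 0.29 (edgeR unadjusted p = 0.00754, adjusted p = 0.286), from 1.11 in males and 0.25 in females. For Atg16l1 it was 0.25 ± 0.08 (edgeR unadjusted p = 0.00276, adjusted p = 0.254), from 0.17 in males and -0.08 in females. The 95% intervals of the differences, not adjusted for the number of genes, were 0.25 to 1.48 for Gabarapl1 and 0.09 to 0.41 for Atg16l1. For Bnip3 the interval was -0.01 to 1.12, for Map1lc3b -0.04 to 0.71 and for Sqstm1 -0.14 to 0.94; each holds 0 and also differences of the size of the female effect itself. Uvrag and Map1lc3a had narrower intervals around 0, -0.31 to 0.27 and -0.30 to 0.13, which do not show that the effects were equal in the sexes.

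Among vehicle mice 0 of the 10 genes differed by sex, where 2.95% of all genes tested were higher in females than in males and 3.28% lower (524 and 583 genes). With library totals alone that split was 1131 and 292, and the median over all genes shifted to 0.11 from 0.01. The largest differences were in Sqstm1, Ulk1 and Uvrag, all lower in female vehicle mice. Sqstm1 had 366.6 to 440.5 CPM in female vehicle mice and 464.8 to 628.0 CPM in male vehicle mice, a log2 difference of -0.46 ± 0.18 (edgeR adjusted p = 0.148). For Uvrag the ranges were 7.83 to 10.4 CPM in females and 10.5 to 12.3 CPM in males (-0.32 ± 0.10, edgeR adjusted p = 0.0561). Ulk1 had 68.9 to 88.2 CPM in females and 83.5 to 102.4 CPM in males (-0.34 ± 0.13, edgeR adjusted p = 0.130). How many of all genes separate the vehicle mice by sex was not counted, so these ranges have no background beside them. In a fit of the 2 vehicle groups alone all 3 passed (adjusted p = 0.00200 for Sqstm1, 0.0171 for Uvrag and 0.00603 for Ulk1), and Uvrag passed with DESeq2 (0.0335). Of all genes, 877 of 16916 were lower in females in the fit of those groups alone, and 801 of 17773 with DESeq2. Uvrag also passed without any of female LLC1 mice 1-4 and 2-3, female vehicle mouse 1-1, male LLC1 mice 1-4, 1-5, 2-1 and 2-2 and male vehicle mouse 1-3 (adjusted p = 0.0301 to 0.0497), and Sqstm1 without male LLC1 mouse 1-5 (0.0477). Over 32 alternatives the adjusted p was 0.0171 to 0.219 for Uvrag, 0.00200 to 0.460 for Sqstm1 and 0.00603 to 0.457 for Ulk1.

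The 10 genes did not vary alike among LLC1 mice. In male LLC1 mice the SD of log2 CPM was 0.67 for Gabarapl1, 0.63 for Bnip3, 0.62 for Sqstm1, 0.43 for Ulk1 and 0.40 for Map1lc3b, against 0.17, 0.09, 0.16, 0.10 and 0.11 in male vehicle mice. It was 0.06 for Becn1 and 0.07 for Atg16l1 in male LLC1 mice. Male LLC1 mouse 1-5 was the highest for 6 of the 10 genes, and mouse 2-2 was among the lowest 2 for 9. For Sqstm1, mouse 1-5 stood 1.78 log2 units above the mean of male vehicle mice and mouse 2-2 0.18 above it. For 7 genes (Ulk1, Uvrag, Map1lc3b, Gabarapl1, Sqstm1, Bnip3 and Bnip3l) the 3 highest male LLC1 mice were 1-5, 2-1 and 2-4.

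The same 3 mice had the most Trim63, which encodes the ubiquitin ligase MuRF1 of muscle wasting, at 2758, 2374 and 2676 CPM. Trim63 was at 1183, 646.9 and 456.8 CPM in male LLC1 mice 2-5, 1-4 and 2-2. Fbxo32, which encodes the ligase atrogin-1, was at 3974, 2333 and 3489 CPM in mice 1-5, 2-1 and 2-4, at 2287 CPM in mouse 2-5 and at 977.7 and 909.5 CPM in mice 1-4 and 2-2. In females the order was another one: mouse 2-4 was highest for 7 of the 10 genes, while mouse 2-3 had the most Fbxo32 (1373 CPM) and Trim63 (774.4 CPM). For 0 of the 10 genes were the 3 highest female LLC1 mice those of Trim63, which were 2-3, 2-5 and 2-1. The third place was close, with Trim63 at 491.1 CPM in mouse 2-1 and 487.9 CPM in mouse 2-4. Mice 2-3, 2-4 and 2-5 were the 3 highest for Ulk1, Becn1, Map1lc3a, Map1lc3b and Bnip3, and not for the other members.

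**Figure D3:**
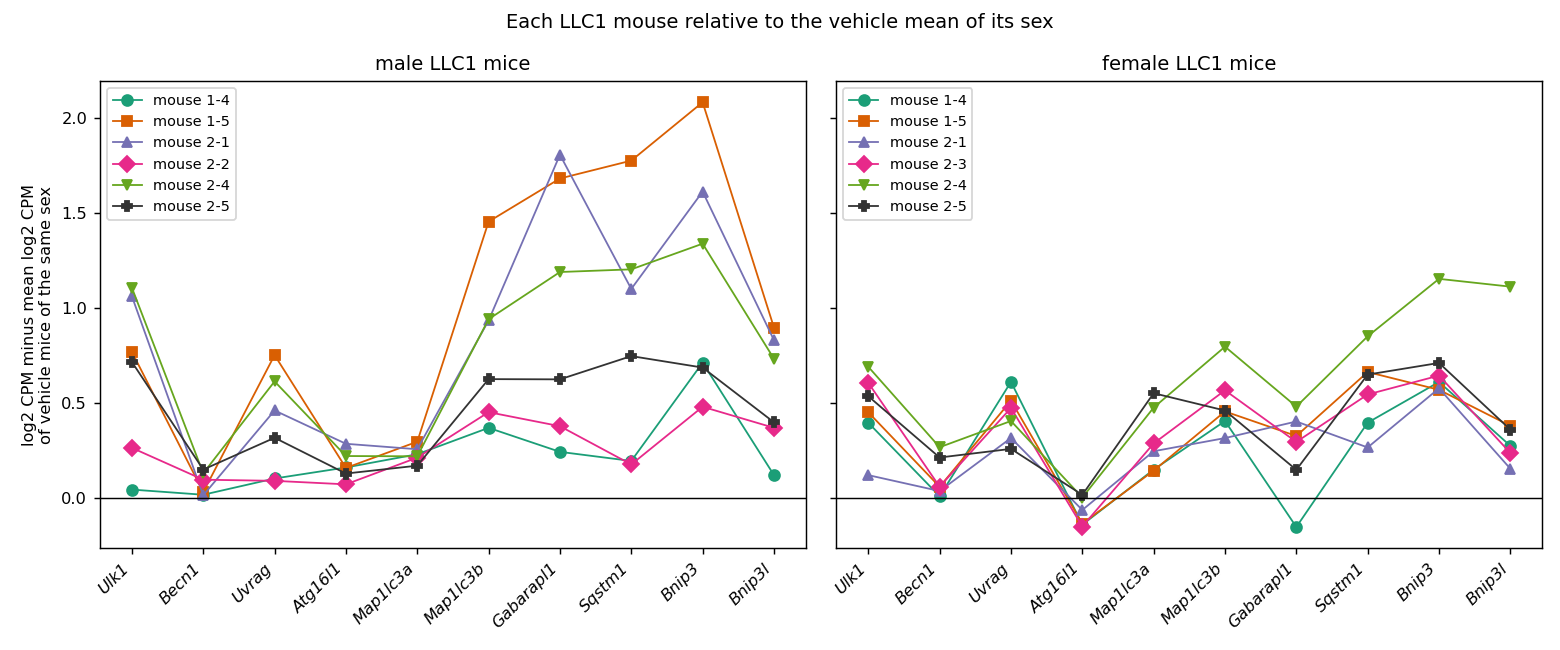
Each line is a single LLC1 mouse, with its log2 CPM minus the mean log2 CPM of vehicle mice of its sex (vertical axis) for the 10 genes (horizontal axis), males on the left. Male mice 1-5, 2-1 and 2-4 run together above the other 3 from Map1lc3b to Bnip3l, and female mouse 2-4 stands apart at Bnip3 (1.15) and Bnip3l (1.11).

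Likeness between genes was described by Pearson's r of log2 CPM over the 24 libraries after the mean of each group was taken off. The points share library depth and scaling, and r weighs the group with the widest spread most. That was male LLC1 for Ulk1, Uvrag, Map1lc3b, Gabarapl1, Sqstm1 and Bnip3. For Bnip3l it was female LLC1 (SD 0.35, against 0.31 in male LLC1 mice), and for Map1lc3a and Becn1 the male LLC1 mice had the narrowest spread of the 4 groups. Within the 10 genes the closest were Map1lc3b with Sqstm1 (r = 0.94), Bnip3 with Map1lc3b (0.91) and Bnip3 with Sqstm1 (0.88). Map1lc3b and Map1lc3a had an r of 0.31, and Becn1 and Uvrag of -0.26. Of 17763 genes outside the 10, the most alike was Psmd4, a proteasome subunit gene, for Sqstm1 (0.98), Bsdc1 for Map1lc3b (0.95), Snhg1, a non-coding host gene of small nucleolar RNAs, for Bnip3 (0.94), and Ankrd11 for Ulk1 (0.94). It was Gna11, a G protein subunit gene, for Uvrag (0.92), Dcaf12 for Bnip3l (0.91), Ampd3, an AMP deaminase gene, for Gabarapl1 (0.91), and Nol7 for Becn1 (0.90). The lowest of these were Rplp0, a ribosomal protein gene, for Map1lc3a (0.84) and Ankzf1 for Atg16l1 (0.81).

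Start-site sequence was looked up for the 10 genes in the RefSeq promoter table (GRCm38.p6), which holds 6 of them: Ulk1, Uvrag, Map1lc3b, Gabarapl1, Sqstm1 and Bnip3. The 250 bases before each start were searched on both strands for GTAAACA, a FoxO motif, for CACGTG, the E-box of the CLEAR type bound by TFEB, and for ACGTG, the core of the hypoxia response element, which the E-box contains. GTAAACA was in 0 of the 6 and in 3.17% of 32851 promoters, and other spellings of a FoxO motif were not searched. CACGTG was in Bnip3, at -108 to -103 from the start, and in 6.02% of promoters. ACGTG was in Bnip3 and, on the other strand as CACGT at -67 to -63, in Uvrag, and in 16.6% of promoters. These matches are letters in a window and not binding sites. Both promoters with a match, and those of Map1lc3b and Sqstm1, which with Bnip3 were the most alike across mice, are printed 5′ to 3′ on the strand of the gene, with the matches in capitals.
Bnip3 (chr7:138909507-138909756, minus strand): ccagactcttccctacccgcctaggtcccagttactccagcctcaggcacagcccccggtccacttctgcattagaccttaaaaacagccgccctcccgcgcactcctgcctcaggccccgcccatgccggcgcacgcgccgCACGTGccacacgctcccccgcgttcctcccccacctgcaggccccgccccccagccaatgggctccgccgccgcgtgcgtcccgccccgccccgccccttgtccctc
Uvrag (chr7:99141145-99141394, minus strand): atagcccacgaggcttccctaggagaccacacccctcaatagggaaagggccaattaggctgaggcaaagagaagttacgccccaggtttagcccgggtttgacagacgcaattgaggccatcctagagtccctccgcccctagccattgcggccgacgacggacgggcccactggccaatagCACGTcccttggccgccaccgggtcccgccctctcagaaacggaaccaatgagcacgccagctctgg
Map1lc3b (chr8:121590188-121590437, plus strand): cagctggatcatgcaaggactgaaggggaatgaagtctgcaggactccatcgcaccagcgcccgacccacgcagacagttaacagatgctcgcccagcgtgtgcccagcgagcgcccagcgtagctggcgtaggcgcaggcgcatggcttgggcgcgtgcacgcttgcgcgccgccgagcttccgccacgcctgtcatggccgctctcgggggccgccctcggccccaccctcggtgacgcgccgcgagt
Sqstm1 (chr11:50210821-50211070, minus strand): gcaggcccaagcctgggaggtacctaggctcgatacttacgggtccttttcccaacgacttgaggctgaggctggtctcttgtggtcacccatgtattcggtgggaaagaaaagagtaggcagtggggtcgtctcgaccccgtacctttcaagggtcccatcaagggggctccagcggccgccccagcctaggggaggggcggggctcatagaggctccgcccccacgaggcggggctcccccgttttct
The windows of Map1lc3b and Sqstm1 hold none of the 3 motifs, and G and C make up 72.4% of the Bnip3 window, 69.6% of that of Map1lc3b, 63.2% of that of Sqstm1 and 61.6% of that of Uvrag.

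The rest of the pathway was described by a list of 56 other autophagy genes, all tested. In males 25 rose, 4 fell and 27 did not pass, 44.6% higher and 7.14% lower against the 19.5% and 16.8% of all genes, with a median log2 fold change of 0.20. In females 3 rose (5.36%), 2 fell (3.57%) and 51 did not pass, with a median of 0.10. These were near the shares over all genes in the edgeR fit of all groups, but the female count varied with the setting. In a fit of the females alone 14 of the 56 rose, where 1391 of 17234 genes did. With DESeq2 7 rose, where 1123 of 17773 genes did, and with limma-voom 3, where 873 did. All 5 other cargo receptors rose in males, among them Tax1bp1 (0.67 ± 0.14, edgeR adjusted p = 0.00118), Calcoco1 (0.45 ± 0.10, 0.00105) and Optn (0.45 ± 0.08, 3.45e-04), which bind ubiquitin or LC3 as Sqstm1 does. In females 2 of the 5 rose, Optn (0.34 ± 0.08, 0.0100) and Calcoco1 (0.31 ± 0.10, 0.0411). Both remaining GABARAP family genes, Gabarap and Gabarapl2, named here after their values were seen, rose in males. In females 0 of the 2 passed with edgeR, DESeq2 or limma-voom. There 1 was at an edgeR unadjusted p under 0.05, where 4534 of all 17773 genes were.

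Of 4 other genes of the initiation complex, 2 rose and 1 fell in males. Atg13, the scaffold of the kinase complex, rose (0.61 ± 0.10, edgeR adjusted p = 1.22e-04), as did Rb1cc1, named after its values were seen, while Ulk2, the close relative of Ulk1, fell (-0.28 ± 0.09, 0.0229). Atg13 and Ulk2 did not pass in females (0.28 ± 0.10 and -0.02 ± 0.09). Atg13 passed there in a fit of the females alone (adjusted p = 0.00433) and without male LLC1 mouse 1-4 or 2-1 or male vehicle mouse 1-3 (0.0381 to 0.0498), over a range of 0.00433 to 0.501 in 32 alternatives. Of 7 other genes of the Beclin 1 complex, 3 rose and 1 fell in males. Nrbf2 rose (0.58 ± 0.14, edgeR adjusted p = 0.00214), with Pik3c3 and Atg14, named after their values were seen, and Sh3glb1, which binds Uvrag, fell (-0.16 ± 0.06, 0.0481). Of 10 genes of the conjugation of LC3, the step of Atg16l1, 1 rose and 1 fell in males, and 0 rose and 1 fell in females. The one that fell in both was Atg10, which joins ATG12 to ATG5 (-0.36 ± 0.12 in males and -0.45 ± 0.12 in females, edgeR adjusted p = 0.0270 and 0.0228). Of 8 other mitophagy genes 1 rose in males, Phb2, named after its values were seen. By edgeR the receptor gene Fundc1 was the only call in females, where Phb2 was at 0.20 ± 0.06 (adjusted p = 0.0522). With DESeq2 1 of the 8 rose in females, where 1123 of 17773 genes did. Fundc1 fell in both sexes (-0.36 ± 0.08 and -0.25 ± 0.08, 0.00163 and 0.0472), where Bnip3 and Bnip3l rose. Wdr45, which acts in membrane growth, rose in males (0.29 ± 0.08, 0.00457) and in females (0.28 ± 0.08, 0.0216). Plekhm1, which tethers autophagosomes to lysosomes, rose in males (0.53 ± 0.12, 0.00155). In the fit of the females alone, Plekhm1 (0.25, edgeR adjusted p = 0.0107) and Tax1bp1 (0.23, 0.0176) also passed in females, over ranges of 0.0107 to 0.739 and 0.0176 to 0.917 in 32 alternatives.

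Several of these calls lie near the threshold, and their log2 fold changes kept their sign and most of their size when leaving out 1 library ended the call. Sh3glb1 kept its call only where the library left out was female LLC1 2-1 or 2-4, female vehicle 2-3, male LLC1 mouse 2-2 or male vehicle mouse 1-3 or 1-4, and lost it without any of the other 18 libraries (adjusted p = 0.0502 to 0.136, log2 fold change -0.17 to -0.12). Fundc1 kept its female call only without female LLC1 mouse 2-5 or male LLC1 mouse 1-4, 1-5, 2-1 or 2-2, and lost it without any of the other 19 (0.0507 to 0.153, at -0.27 to -0.21). Ulk2 was not called in males without LLC1 mouse 1-5 or 2-1 or vehicle mouse 1-1 or 2-5 (0.0506 to 0.0627, at -0.25 to -0.21), nor Atg10 without LLC1 mouse 1-5, 2-1, 2-4 or 2-5 or vehicle mouse 2-4 (0.0517 to 0.0721, at -0.35 to -0.31). In females Atg10 was lost without LLC1 mouse 1-4, 1-5 or 2-3 or vehicle mouse 2-2 or 2-3 (0.0632 to 0.0880, at -0.40 to -0.36). Calcoco1 was lost without LLC1 mouse 2-3, 2-4 or 2-5 or vehicle mouse 1-3, 1-4 or 2-1 of that sex (0.0520 to 0.104, at 0.25 to 0.34), and Wdr45 without female vehicle mouse 1-4 (0.0540, at 0.24).

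Transcription factors known to act on autophagy genes were listed with them. Foxo1 and Foxo3 had the largest rises of the 56 genes in males, 1.52 ± 0.40 and 1.04 ± 0.17 in log2 (edgeR adjusted p = 0.00538 and 1.29e-04), or 2.87-fold and 2.06-fold. For Foxo1 only 3 of the 6 male LLC1 mice lay above all male vehicle mice. Its male call was kept in 31 of 32 alternatives (adjusted p = 7.93e-04 to 0.0657). Of the 6 factors listed, 4 rose in males and 0 in females by edgeR. In females 2 were at an edgeR unadjusted p under 0.05, where 4534 of all 17773 genes were. With DESeq2 2 rose in females, where 1123 of 17773 genes did, and with limma-voom 0, where 873 did. By edgeR, Foxo1 was at 0.79 ± 0.39 in females and Foxo3 at 0.49 ± 0.17 (adjusted p = 0.203 and 0.0646). Foxo3 passed in females with DESeq2 (0.0370) and in a fit of the females alone (0.0240), over a range of 0.0240 to 0.453 in 32 alternatives. It also passed there without female LLC1 mouse 1-5, female vehicle mouse 1-4 or male LLC1 mouse 1-4 or 2-2 (0.0312 to 0.0490).

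**Figure D4:**
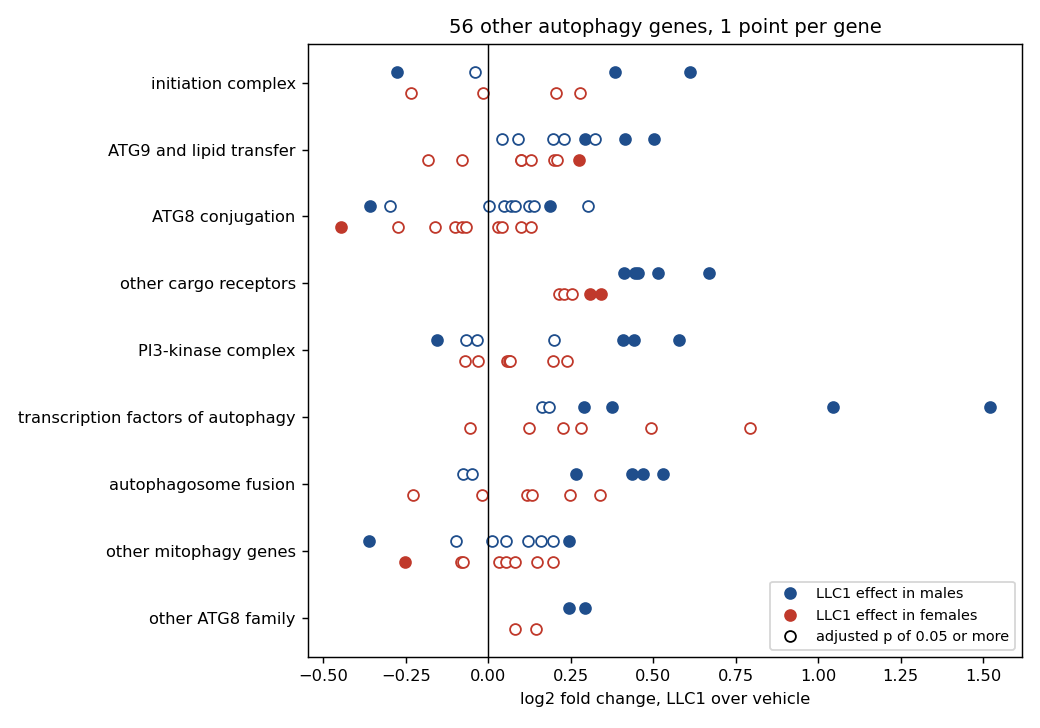
Log2 fold change of LLC1 over vehicle (horizontal axis) of the 56 other autophagy genes by list (rows), in males (blue) and females (red), 1 point per gene, open where the adjusted p was 0.05 or more. All 5 other cargo receptors are filled in males, and the point furthest right is Foxo1 in males at 1.52.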

How the data were processed

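Poly(A) RNA from 24 gastrocnemius samples was made into TruSeq version 2 libraries, which keep no strand, per the labels' protocols. Per the submitters' processing notes, CASAVA, STAR and featureCounts were used with mm10; no source used here gives their versions. What the deposited file holds is raw read counts per gene, whole numbers not normalized by the authors, with 0 further value columns. The 37 mitochondrial-encoded genes held 0 counts.

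Each title was taken as a separate mouse, which the labels do not state outright, so p-values reflect how these libraries vary. Within groups, 60 pairs of libraries differed by 10.05 to 211.2 in chi-square per degree of freedom over genes with at least 50 counts. None was therefore a repeat count of the same library. This cannot tell whether any mouse gave more than a single library. Counts were tested in edgeR 4.0.16 (R 4.3.3) with the quasi-likelihood F-test, filterByExpr, TMM factors (0.924 to 1.10), robust dispersions and 4 group means, with 20 residual degrees of freedom and a biological coefficient of variation of 0.174 in common. Adjustment was by Benjamini-Hochberg over 17773 genes, and SE follows from the F statistic. Alternatives were RLE factors, library totals, no filter, DESeq2 1.42.0, limma-voom (limma 3.58.1), fits of only the groups compared, replicate blocks and leaving out each library, 32 for each comparison.

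The members and lists were chosen with earlier results of these data known. All 10 members are named, at most 6 called genes of the 56 others per sex and direction by size, and the most alike gene of each member. Exon overlap and shared 50-base stretches used GENCODE M21 (GRCm38, the build of the counts). Becn1 shares 43.9% of its exon bases with Cntd1 and is uncertain.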

Additional observations from a re-analysis of the deposited data

Results flagged for a closer look

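In each group of 6 mice the highest and lowest CPM of the 10 genes were compared with the nearest mouse. The gap passed Dixon's 95% critical value (0.625 of the range) in 4 of 40 groups, where chance gives about 1 in 20. Bnip3 stood at 438.4 CPM in female LLC1 mouse 2-4, where the next had 322.6. Bnip3l stood at 130.7 CPM in the same mouse, where the next had 78.7, and the summed erythroid markers were 19990 CPM there; their part in the value was not tested. Ulk1 stood at 88.2 CPM in female vehicle mouse 1-1, where the next had 75.4. Bnip3l stood at 51.1 CPM in male vehicle mouse 1-3, below the next at 60.3.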

How the results depend on the processing

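Of 2112 values of single named genes under alternatives, 1944 kept their direction and their side of the threshold. For the 10 genes, 4 values changed their call or sign in males and 33 in females. Whether the title numbers pair the samples was not tested. After group means were taken off, same-numbered LLC1 and vehicle mice had correlations of -0.07 to -0.01 in males and -0.17 to 0.06 in females. These are few pairs, with no differently numbered pairs beside them, so they cannot settle it. With the full title number as a replicate block, 0 of the 10 genes rose in females, Map1lc3a and Atg16l1 lost their male calls, and the other 56 autophagy genes gave 13 higher and 1 lower in males and 0 and 0 in females. Over all 17773 genes the full-number block gave 352 higher and 128 lower in females, and 1939 and 1668 in males. The first digit as the block gave 1 of the 56 lower in females, where 944 of all genes were lower. Of the 56 in females, 6 were higher and 1 lower with library totals, 7 higher with DESeq2, 14 higher in the fit of those groups alone, and 1 lower with RLE factors or no filter. In males 2 were lower with library totals (2187 of 17773 genes) and 2 in the fit of the males alone (2516 of 16744). Of the 10 genes in vehicle mice, 1 was lower in females with DESeq2 (801 of all 17773 genes). In the fit of the vehicle groups alone 3 were lower (877 of 16916). Leaving out 1 library gave 3 to 7 of the 10 genes higher in females, and 0 to 2 lower in vehicle females. Of the 56 it gave 2 to 8 higher and 0 to 3 lower in females, and 1 to 5 lower in males. Over all genes it gave 607 to 1139 higher and 312 to 1144 lower in females. It gave 2288 to 3326 lower in males and 345 to 848 lower in vehicle females.

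Signs turned only in values far from the threshold, and the cause was not tested. With library totals, Ulk2 in females was at 0.0169 (-0.0324 to 0.0185 without 1 library), the interaction of Uvrag at 0.0029 (-0.102 to 0.0369), and the vehicle difference of Becn1 at 0.0673 and of Map1lc3a at 0.0720 (-0.0610 to 0.0102). With the full title number as a replicate block, the interaction was 0.0053 for Becn1 and 0.0570 for Uvrag, and the vehicle difference 0.0143 for Becn1 and -0.0886 for Gabarapl1 (-0.0505 to 0.113). With the first digit as the block the vehicle difference of Bnip3l was -0.0012 (-0.0415 to 0.0374), and that of Atg16l1 ran from -0.0086 to 0.0462 without 1 library. Depth was 26.2 to 47.4 M counts per library, and counting error is largest for Uvrag, whose lowest library held 238 counts.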
